A study of Homo sapiens with 6 samples.

Results

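The gamma tubulin ring complex is described here through 10 genes, chosen by gene name and with earlier results of these data known, out of 38900 rows in the table. They are the gamma tubulin genes TUBG1 and TUBG2, the genes TUBGCP2, TUBGCP3, TUBGCP4, TUBGCP5 and TUBGCP6 for the gamma tubulin complex proteins, and MZT1, MZT2A and MZT2B for the small mitotic spindle organizing proteins. All 10 matched a row and all 10 were abundant enough to be tested. The RNA of the 6 libraries came from hTERT RPE1, an established human retinal pigment epithelial line immortalized with telomerase. The cells were held at full confluency for 5 days to make them quiescent. They then received fresh medium for 6 hours with 0.1% DMSO (3 libraries) or with 100 nM combretastatin A4, called CA4 (3 libraries). CA4 binds tubulin at the colchicine site and depolymerizes microtubules. The labels do not say whether the CA4 samples held the same share of DMSO. Nothing in the labels says that the replicates were separate cultures or days, so the p-values measure only the spread between these libraries.

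Gamma tubulin is the tubulin that starts microtubules rather than building their walls. It binds the GCP proteins, which the TUBGCP genes encode: GCP2 and GCP3 form a small complex with it, and GCP4, GCP5 and GCP6 complete a ring whose shape templates a new microtubule. MZT1 and MZT2 are short proteins that bind the ends of GCPs and help the ring to assemble and to meet its anchors at centrosomes, Golgi and spindle. Alpha and beta tubulin, the wall subunits, are known to control their own mRNA. When free dimers increase, their mRNAs are degraded, through a factor (TTC5) that reads the first residues of the nascent chain.

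TUBG1 and TUBG2 lie on the plus strand of chromosome 17 in GRCh38, at chr17:42609676-42615234 and chr17:42659305-42667006 by GENCODE 29. They are 44.07 kb apart, with 0 other protein coding genes wholly between them. Both have 1356 coding bases, of which 94.7% are identical. The coding starts of both genes are shown beside those of other tubulins, since the known feedback on alpha and beta tubulin mRNA reads that end. Each line gives the first 30 coding bases from GENCODE 29, 5′ to 3′, with codons 2 to 4 in capitals.
TUBG1: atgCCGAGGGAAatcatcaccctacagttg
TUBG2: atgCCCCGGGAGatcatcaccctgcagctg
TUBB: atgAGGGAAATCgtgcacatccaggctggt
TUBB3: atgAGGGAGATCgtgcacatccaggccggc
TUBA1A: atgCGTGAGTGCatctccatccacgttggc
TUBD1: atgTCAATTGTAacagtgcaacttggtcag
TUBE1: atgACCCAGTCGgtggtcgtacaggtcggc
The bases AGGGAAATC, codons 2 to 4 of TUBB and of TUBB4B, also occur in TUBG1, at coding bases 7 to 15 instead of 4 to 12. In the same way CGGGAGATC of TUBB4A lies at bases 7 to 15 of TUBG2. Both gamma tubulin genes thus carry 1 additional codon between the start codon and the stretch they share with a beta tubulin. TUBD1 and TUBE1, the delta and epsilon tubulins of centrioles, have other codons there. The matches come from a search of 18 alpha and beta tubulins, of which TUBB4A was too low to be tested. Whether the feedback acts on either gamma tubulin mRNA was not tested.

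The 250 bases upstream of the RefSeq starts of both gamma tubulin genes (GRCh38.p14) are shown because these are the pair of members whose groups did not overlap. Capitals mark the motifs that were found.
TUBG1 promoter, chr17:42609433-42609682, plus strand: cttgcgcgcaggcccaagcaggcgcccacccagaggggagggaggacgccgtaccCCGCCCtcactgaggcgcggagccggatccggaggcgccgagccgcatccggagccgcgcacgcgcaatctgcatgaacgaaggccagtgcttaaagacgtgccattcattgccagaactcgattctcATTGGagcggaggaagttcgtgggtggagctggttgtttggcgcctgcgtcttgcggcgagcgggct
TUBG2 promoter, chr17:42659034-42659283, plus strand: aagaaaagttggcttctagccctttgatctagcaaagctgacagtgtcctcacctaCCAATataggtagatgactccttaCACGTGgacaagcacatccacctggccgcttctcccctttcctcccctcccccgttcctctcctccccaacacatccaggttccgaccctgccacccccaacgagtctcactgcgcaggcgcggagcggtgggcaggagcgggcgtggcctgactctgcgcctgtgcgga
The motifs searched on both strands were the CCAAT motif, the GC box GGGCGG, the E box CACGTG and 2 forms of the cell cycle element, TTTGAA together with the variant TTCGAA. TUBG1 had 1 CCAAT motif, 67 bases before the start on the reverse strand, and 1 GC box. TUBG2 had 1 CCAAT motif, 194 bases before the start, and 1 E box. Of 34943 promoter windows of the same length, 32.0% held CCAAT, 42.5% the GC box and 6.32% the E box. The table held promoters for 9 of the 10 members (all but TUBGCP4), and 6 of these 9 had CCAAT. MZT1 was the 1 member with TTTGAA and with TTCGAA, which 13.4% and 1.2% of all windows held. These are matches of letters only.

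TUBG1 fell to 55.5% of its DMSO level in CA4, while no other member passed the test. TUBG2 stood at 71.8% of its DMSO level with a limma adjusted p of 0.0801. Of the 10 members, 1 (TUBG1) was called lower and 0 were called higher in limma's moderated test at an adjusted p of 0.05, where 1.97% and 2.97% of the 13928 genes tested were called. edgeR's quasi-likelihood test called 1 lower and 0 higher (1.82% and 2.8% of all genes), and DESeq2 called 2 and 0 (5.39% and 6.92%). In limma 2 members were lower and 0 higher with the same total in every library (3.76% and 2% of all genes) and with the replicate number as a block (8.16% and 9.05%), and 0 and 0 without the variance trend (0.373% and 0.366%). Without the filter on low genes 1 was lower and 0 higher (1.05% and 1.6%). At an unadjusted p under 0.05 there were 2 lower and 0 higher in limma, where 23% of all genes lay in either direction. The 3 CA4 libraries lay wholly below the 3 DMSO libraries in 2 of the 10, TUBG1 and TUBG2, and wholly above in 0, against 13.4% and 14.3% of all genes. The median log2 fold change of the 10 was 0.0038, beside -0.0082 for all tested genes.

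TUBG1, the main gamma tubulin gene of most cells, had normalized counts of 1106, 890.0 and 945 in the DMSO libraries (replicates 1, 2 and 3) and of 583, 541 and 508 in CA4. A normalized count is a read count divided by the authors' scaling factor for that library. The lowest DMSO library was above the highest CA4 library by a wide margin, and the CA4 libraries lay closer together. The means were 980 ± 112 and 544 ± 37.4 (SD, n = 3 each). On the log2 scale TUBG1 fell by 0.84 (SE 0.12, 95% interval -1.11 to -0.58, limma adjusted p = 0.0135). The gene ranked 115 of 13928 by p-value. It no longer passed without DMSO replicate 3 (limma adjusted p = 0.0615) and without CA4 replicate 3 (0.0532), with the log2 fold change still at -0.87 and -0.80.

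TUBG2, the second gamma tubulin gene, which is known from mouse work as the form enriched in brain, was at 373, 369 and 424 normalized counts in DMSO and 247, 295 and 294 in CA4. The groups did not overlap here either, but the gap between the nearest libraries was smaller. Its means of 389 ± 30.3 and 279 ± 27.3 (SD, n = 3 each) gave a log2 fold change of -0.48 (SE 0.13, 95% interval -0.78 to -0.18). limma's adjusted p of 0.0801 was above the threshold, while DESeq2 gave an adjusted p of 0.0355 and scaling all libraries to the same total gave 0.0434 in limma.

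**Figure D1:**
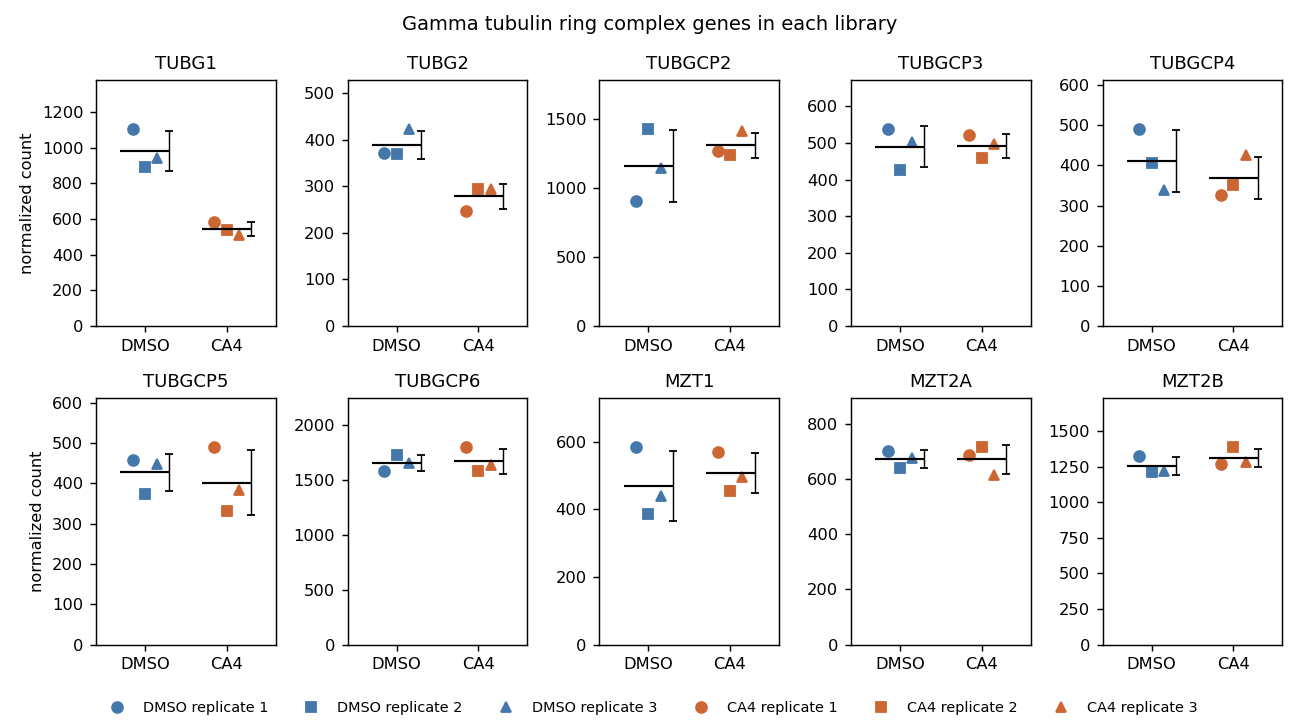
Normalized counts (linear axes from 0) of the 10 ring complex genes in each library, with DMSO in blue and CA4 in orange. Marker shapes give the replicate number, horizontal bars the group means and error bars the SD over 3 libraries. In TUBG1 and TUBG2 all CA4 points lie below all DMSO points, and in the other 8 genes the groups overlap.

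Because the coding sequences of the gamma tubulin genes are so alike, reads could be exchanged between them in the counting. Of the 50-base words in the TUBG1 transcripts, 18.2% also occur in TUBG2, and 15.9% of those of TUBG2 occur in TUBG1. The sum of both genes does not depend on such an exchange. It was 1479, 1259 and 1368 normalized counts in DMSO and 830.2, 836 and 802 in CA4. The 3 CA4 sums spanned a far narrower range than the 3 DMSO sums. Fitted as 1 gene, the sum had a log2 fold change of -0.73 (SE 0.09, 95% interval -0.95 to -0.52, limma adjusted p = 0.0108). Without DMSO replicate 3 the adjusted p was 0.0591.

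TUBG1 made up 74.8%, 70.7% and 69.0% of that sum in DMSO and 70.2%, 64.7% and 63.3% in CA4. These shares overlapped between the groups. The log2 change of TUBG1 was 0.37 below that of TUBG2, computed within each library, and this difference was within the spread (two-sided exact permutation p = 0.2, n = 3 each). A p of that size does not show that both genes changed alike.

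The GCP genes encode the scaffold of the ring. TUBGCP2 was at 905, 1427 and 1147 normalized counts in DMSO and 1267, 1241 and 1414 in CA4. DMSO replicates 1 and 2 were the lowest and the highest of the 6 libraries, so the CA4 values fell within the DMSO range. The log2 fold change was 0.20 (SE 0.16, 95% interval -0.18 to 0.57, limma adjusted p = 0.523). TUBGCP3, the partner of GCP2 in the small complex, was at 538, 427 and 503 in DMSO and 521, 458 and 497 in CA4. Its log2 fold change of 0.012 had a 95% interval of -0.28 to 0.30 (limma adjusted p = 0.971).

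Among the 3 genes for the less abundant scaffold proteins, TUBGCP6 was the steadiest, at 1579, 1731 and 1654 normalized counts in DMSO and 1798, 1579.8 and 1639.5 in CA4. Its 95% interval, -0.19 to 0.22, leaves out a change as large as that of TUBG1. TUBGCP4 was at 491, 405 and 338 in DMSO and 327, 351 and 427 in CA4, with no separation of the groups (log2 fold change -0.15, 95% interval -0.55 to 0.25, limma adjusted p = 0.651). TUBGCP5 was at 458, 374 and 449 in DMSO and 489, 331 and 383 in CA4, so that CA4 held both the highest and the lowest value (log2 fold change -0.10, 95% interval -0.50 to 0.29, limma adjusted p = 0.766).

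The MZT genes also overlapped between the groups. MZT1 was at 583, 385 and 439.7 normalized counts in DMSO and 571, 453 and 496 in CA4, with replicate 1 the highest of each group. Its log2 fold change was 0.13 (95% interval -0.28 to 0.53, limma adjusted p = 0.716). MZT2A was at 704, 640.4 and 678 in DMSO and 688, 716 and 615 in CA4, and MZT2B at 1326, 1214 and 1218 in DMSO and 1269, 1386 and 1282 in CA4. These paralogs, both on chromosome 2, share 97.9% of 477 aligned coding bases, and 20.8% of the 50-base words of MZT2B occur in MZT2A. Their sum had a log2 fold change of 0.043 (SE 0.08, 95% interval -0.15 to 0.23, limma adjusted p = 0.803). The sign of the change of TUBGCP3, TUBGCP6, MZT2A, MZT2B and the MZT2 sum turned under at least 1 other scaling of the libraries, so these signs depend on the scaling. Scaling to the same total moved the median of all tested genes by -0.10, and MZT2B turned only there.

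Several members share exons with a gene on the opposite strand in GENCODE 29, and the use of strand in the counting is not given in the sources used here. SMPD4 covers 44.9% of the exon bases of MZT2B, TP53BP1 covers 33.4% of those of TUBGCP4, ZNF511 covers 11.6% of those of TUBGCP2 and RETREG3 covers 5.77% of those of TUBG1. If strand was not used, reads of these genes and their partners cannot be told apart. Each member had at least 256 recovered reads in every library, where counting error alone is 6.25% of the value if these are counts of whole reads and not rounded estimates.

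TUBG1 was then compared within each library with the other 9 members, and in 8 of the 9 the log2 difference between TUBG1 and the member shifted downward in CA4 with no overlap between the groups. TUBG2 was the exception. Such a downward shift without overlap was found for 75.7% of the 13927 other tested genes, so the count is near the background and says nothing particular about the members. Against TUBGCP3, for instance, TUBG1 was 1.00 ± 0.08 higher on the log2 scale in DMSO and 0.14 ± 0.11 higher in CA4 (SD, n = 3 each). Shifts in these 8 ran from -1.04 against TUBGCP2 to -0.69 against TUBGCP4. Each gave a two-sided exact permutation p of 0.1, the lowest value possible with 3 libraries a group. Adjusted over all 22 gene pairs compared, it is 0.122.

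Levels can be compared between genes only per length. Per kb of the main GENCODE transcript, TUBG1 had 608 ± 69.6 normalized counts in DMSO, above every GCP gene and below MZT2A and MZT2B (SD, n = 3). In CA4 it had 338 ± 23.2, and its libraries overlapped with those of TUBGCP2 at 310 ± 22.2 and TUBGCP6 at 298 ± 20.1 (SD, n = 3 each). In DMSO the order was MZT2B, MZT2A, TUBG1, TUBGCP6, TUBGCP2, TUBG2, MZT1, TUBGCP3, TUBGCP5 and TUBGCP4. The neighbours from TUBGCP6 to MZT1, and TUBGCP3 with TUBGCP5, overlapped. The order depends on the length chosen. Per coding kb MZT1 stood above MZT2A and TUBG1, TUBGCP2 above TUBGCP6, and TUBGCP4 above TUBGCP3 and TUBGCP5, while TUBG1 again had a higher mean than every GCP gene in DMSO. In CA4 TUBG1 had a mean of 401 per coding kb, below the 483 of TUBGCP2. The gamma tubulins together, divided by the 5 GCP genes together on the transcript length scale, gave 1.09, 0.835 and 0.959 in DMSO and 0.540, 0.606 and 0.526 in CA4. On the coding length scale the means were 0.807 ± 0.0992 and 0.474 ± 0.0373 (SD, n = 3 each). On both scales the CA4 ratios lay below all DMSO ratios. These ratios are of transcripts, not of proteins in the ring.

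Most tubulins of the microtubule wall were lowered further than TUBG1. Of 11 tested alpha and beta tubulin genes, 9 were called lower and 0 higher by limma, where 1.97% and 2.97% of all tested genes were called, with a median log2 fold change of -1.78. DESeq2 called 10 lower and 0 higher (5.39% and 6.92% of all genes). The log2 difference of TUBG1 from the wall tubulin shifted upward without overlap in 8 of these 11, and in 0.402% of all other tested genes. The shifts were 0.71 (against TUBA1C) to 1.89 (against TUBB3), each with the same smallest exact permutation p of 0.1, or 0.122 adjusted over the 22 pairs. TUBA4A, a minor alpha tubulin, averaged 582 ± 94.9 normalized counts with DMSO and 316 ± 51.0 with CA4 (SD, n = 3 each). Its log2 fold change was -0.88, and the difference from TUBG1 was 0.036 (two-sided exact permutation p = 0.9, n = 3 each). Only against TUBB6, of these 11, did the log2 difference shift downward without overlap, by -0.34 (TUBB6 itself had a log2 fold change of -0.51 and a limma adjusted p of 0.105). Such a downward shift was found for 75.7% of all other tested genes. TUBA8, at 7.26 and 14.1 mean normalized counts, was too low to compare.

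The centriolar tubulins had log2 fold changes of opposite sign, neither of which passed the test, and they were not tested against each other. TUBD1 was at 77.3, 85.1 and 118 normalized counts in DMSO and 47.4, 62.8 and 44.6 in CA4, a log2 fold change of -0.84 (limma adjusted p = 0.102). TUBE1 was at 166, 172 and 186 in DMSO and 209, 251 and 282 in CA4, a log2 fold change of 0.49 (limma adjusted p = 0.118). edgeR and DESeq2 called neither gene, and both had an unadjusted p under 0.05 in limma, as 23% of all genes had. With the replicate number as a block, where 8.16% of all genes were called lower and 9.05% higher, TUBE1 passed and TUBD1 did not. The log2 difference between TUBG1 and TUBE1 shifted by -1.33 without overlap (two-sided exact permutation p = 0.1, n = 3 each), while that between TUBG1 and TUBD1 moved by -0.0089 (p = 1.0 in the same exact test).

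**Figure D2:**
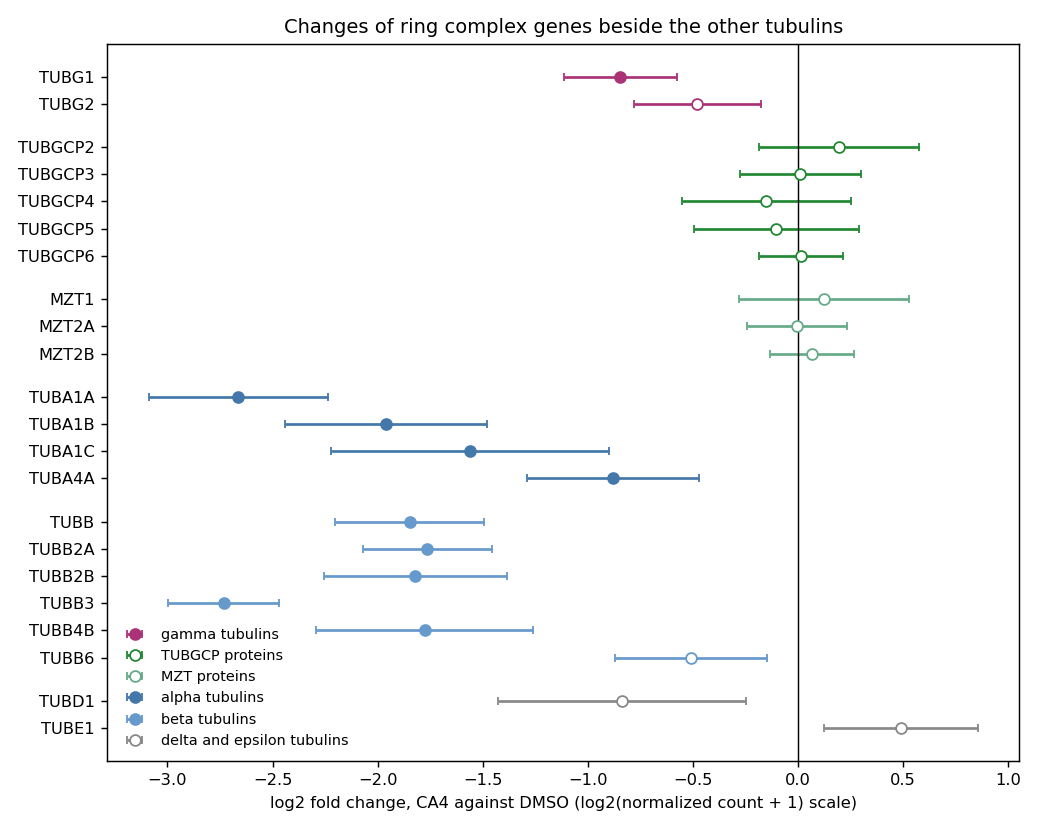
Log2 fold changes of CA4 against DMSO with 95% intervals from limma, for the 10 ring complex genes and the tested alpha, beta, delta and epsilon tubulins other than TUBA8. Filled points passed an adjusted p of 0.05. The gamma tubulins lie to the left of 0, between the GCP and MZT genes near 0 and most of the alpha and beta tubulins at or below -1.56.

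Across the 6 libraries the genes with levels most like those of TUBG1 included 3 wall tubulins. Among the 11688 genes whose mean over the libraries reached 50, the 5 with the highest Pearson correlation of log2 levels with TUBG1 were TUBA1B (0.999), STIMATE (0.998), TUBB (0.996), TUBB4B (0.995) and PGD (0.991). The 6 points share the treatment contrast and the authors' scaling, so these values are a description. STIMATE and PGD had log2 fold changes of -0.24 and -0.33 and did not pass the test. TUBB2A and TUBB2B ranked 8 and 10 by the same measure, TUBA1C 32, TUBB3 40, TUBA1A 75, TUBB6 352 and TUBA4A 565. Within the DMSO group TUBA1B had 23173, 14209 and 14651 normalized counts, with replicate 1 the highest and replicate 2 the lowest, as for TUBG1. Within CA4 it had 5140, 4361 and 3651, also in the order of TUBG1. TUBA1B was picked by its correlation over these same libraries, so the shared order adds no support. TUBG2 had a correlation of 0.839 with TUBG1 and ranked 737, and the other members lay between -0.632 for TUBGCP2 and 0.405 for TUBGCP5.

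**Figure D3:**
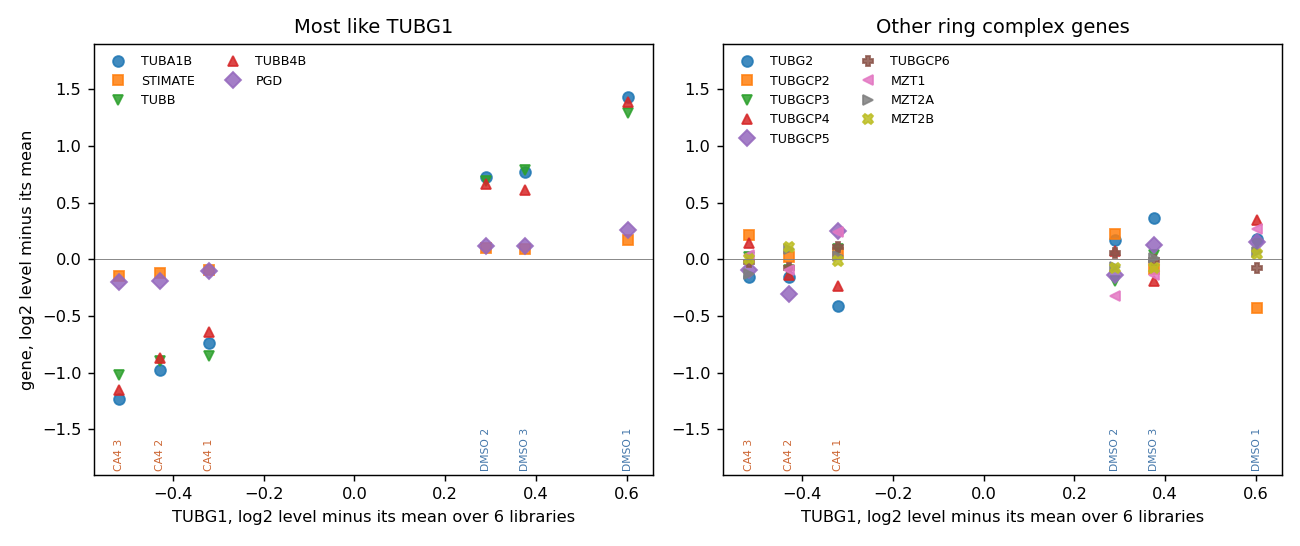
Log2 levels in the 6 libraries, each gene minus its own mean, against those of TUBG1 on the x axis. On the left are the 5 genes most like TUBG1, picked by their correlation in these same libraries, and on the right the other 9 ring complex genes. TUBA1B and TUBB rise at each step of TUBG1 from CA4 replicate 3 to DMSO replicate 1, over a wider range than TUBG1 itself. TUBB4B does so except between DMSO replicates 2 and 3, and the GCP and MZT genes scatter around 0.

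Genes that act with the ring were described from 3 lists. For the 12 proteins that anchor the ring, 1 was called lower and 1 higher by limma, beside 1.97% and 2.97% of all tested genes. edgeR called 1 lower and 0 higher (1.82% and 2.8% of all genes). DESeq2 (5.39% and 6.92%) and the replicate block (8.16% and 9.05%) each called 2 lower and 1 higher. The one called lower by limma was CDK5RAP2, whose protein binds and activates the ring at the centrosome. It had 1284, 1296 and 1082 normalized counts in DMSO and 822, 671 and 613 in CA4. The groups were well apart (log2 fold change -0.80, SE 0.14, limma adjusted p = 0.0217). It was called in edgeR and DESeq2, and lost without the variance trend and in 4 of the 6 fits that left out a library, those without DMSO replicate 2 or 3 or CA4 replicate 2 or 3. PDE4DIP encodes myomegalin, the paralog of CDK5RAP2 that acts at the Golgi. It had 3257, 3795 and 3590.3 normalized counts in DMSO and 5315, 4752 and 4400.3 in CA4, so the paralog moved the other way (log2 fold change 0.44, SE 0.10, limma adjusted p = 0.0489). That call was lost in 13 of 18 alternatives, edgeR's (adjusted p = 0.0521) and every fit without a library among them. A pseudogene copy of PDE4DIP is known, and sequence shared with it was not measured here.

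Of the other anchors, NINL, a ninein-like centrosomal protein, was at 140.0, 315 and 210 normalized counts in DMSO and 129.5, 98.7 and 76.9 in CA4 (log2 fold change -1.07, SE 0.32, limma adjusted p = 0.101). CEP192, which recruits the ring as centrosomes mature, was at 512, 481 and 389 in DMSO and 341, 353 and 320 in CA4 (log2 fold change -0.44, SE 0.14, limma adjusted p = 0.108). In both genes the CA4 libraries lay wholly below DMSO, as they did in 3 of the 12 anchors and in 13.4% of all genes. CEP152 had a log2 fold change of -0.82 with a wide 95% interval of -2.07 to 0.43. PCNT, AKAP9 and NEDD1, the best known docking proteins, were named after their values were seen, and their log2 fold changes lay between -0.12 and -0.038.

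Of the 8 subunits of augmin, which docks the ring on the side of existing microtubules, 0 were called lower and 0 higher in limma (1.97% and 2.97% of all genes), edgeR (1.82% and 2.8%) or DESeq2 (5.39% and 6.92%). At an unadjusted p under 0.05 there was 1 of 8, HAUS4, where 23% of all tested genes lay in limma. It had a log2 fold change of -0.40 (limma adjusted p = 0.168). HAUS8, the subunit that contacts the microtubule, and HAUS1 had 0.59 and -0.45, with overlapping groups.

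In the list of 19 assembly and nucleation partners, 1 was called lower and 0 higher by limma, against 0 and 0 in edgeR and 3 and 0 in DESeq2. Of all genes, limma called 1.97% lower, edgeR 1.82% and DESeq2 5.39%. NEK6, a kinase active in mitosis, was at 2304, 2688 and 2695 normalized counts in DMSO and 1724, 2049 and 1676 in CA4 (log2 fold change -0.50, SE 0.11, limma adjusted p = 0.0472). NEK6 did not pass in edgeR (adjusted p = 0.0506), in the fits without DMSO replicate 2 or 3 or CA4 replicate 1 or 3, without the filter and without the variance trend. CKAP5, the microtubule polymerase that works with the ring in nucleation, was at 3527, 2665 and 3232 in DMSO and 2619, 2243 and 2024 in CA4 (log2 fold change -0.45, SE 0.14, limma adjusted p = 0.0999). MAPRE1, a protein of growing plus ends, had a log2 fold change of 0.23 (limma adjusted p = 0.195). CAMSAP3, a protein of free minus ends, was low, at 36.7, 102 and 4.75 normalized counts in DMSO and 2.90, 8.98 and 6.69 in CA4, with overlapping groups. The medians of the anchor, augmin and partner lists were -0.12, -0.17 and -0.15.

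**Figure D4:**
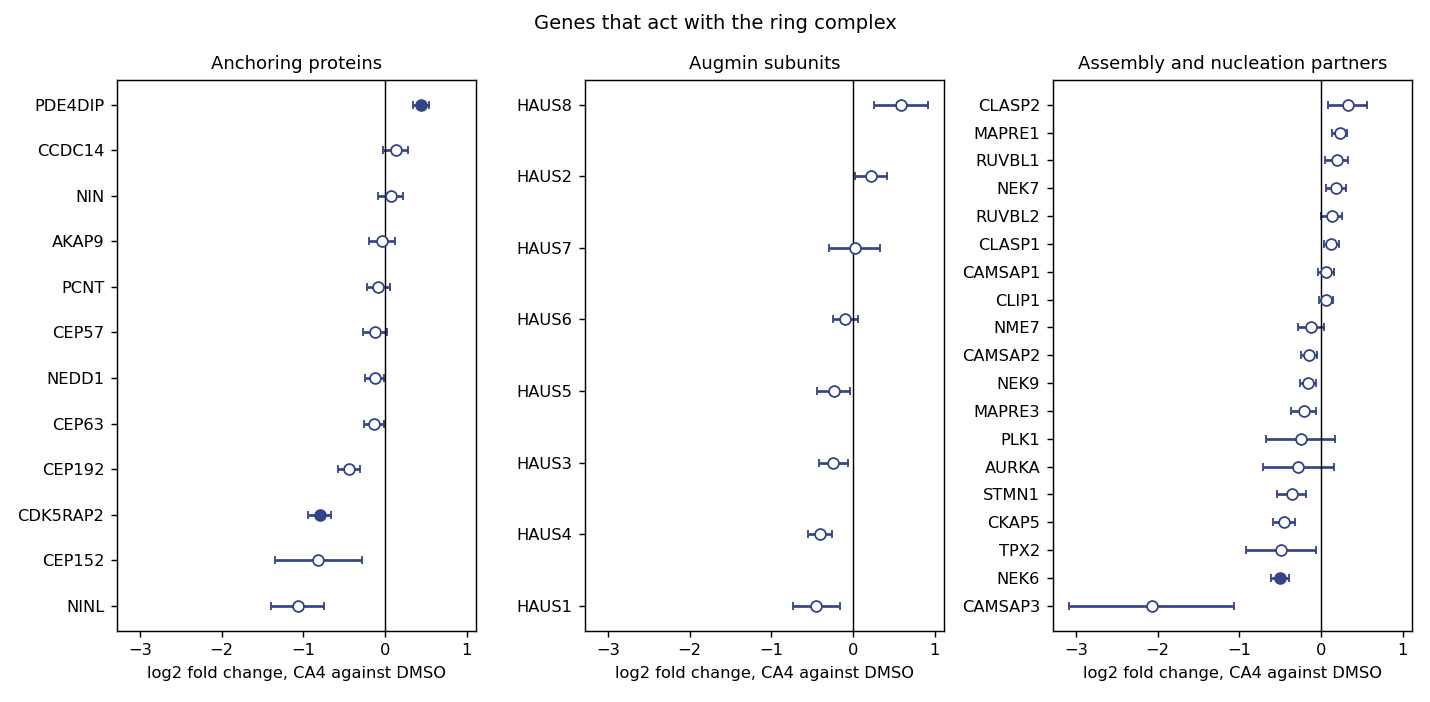
Log2 fold changes of CA4 against DMSO with standard errors from limma, for 12 anchoring proteins, 8 augmin subunits and 19 assembly and nucleation partners. Filled points passed an adjusted p of 0.05. These are CDK5RAP2 and NEK6 on the left of 0 and PDE4DIP on the right.

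The libraries held 19524936 to 22538004 recovered reads. Many members serve cell division, so genes of cycling cells are given beside them. Of 10 such genes 0 were called lower in limma, 0 in edgeR and 1 in DESeq2, where 1.97%, 1.82% and 5.39% of all genes were, and 0 were called higher. In limma 1 had an unadjusted p under 0.05, against 23% of all genes. With the replicate number as a block 4 were called lower, where 8.16% of all genes were. All 10 had a log2 fold change below 0 (median -0.38), as had 7122 of the 13928 tested genes (median -0.0082). Their summed level was 15520 normalized counts in DMSO replicate 1 against 7997 and 7453 in replicates 2 and 3, and 12063, 7449 and 4474 in CA4. Each CA4 sum was below that of the DMSO library with the same number. DMSO replicate 1 was the highest library for this sum and for TUBG1, TUBGCP3, TUBGCP4 and MZT1, while the groups overlapped in the sum and not in TUBG1. Without DMSO replicate 1 the log2 fold change of TUBG1 was -0.75 (limma adjusted p = 0.0172).

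The identity of the line was checked against markers. Of 12 markers of retinal pigment epithelium, 7 were tested. MITF and OTX2 were present, RPE65 lay between 13.5 and 40.8 normalized counts, TYR was at 0 in 4 libraries and TTR in all. The summed level was 1147 to 1885 in DMSO and 660 to 1069 in CA4, and limma and edgeR called OTX2 alone lower, while DESeq2 and the fit with the replicate block called 2 of the 7, OTX2 and MITF. Of all genes, 1.97% in limma, 1.82% in edgeR, 5.39% in DESeq2 and 8.16% with the block were called lower. Of 5 markers of simple epithelium 3 were tested. KRT8 and KRT18 were abundant, while KRT19 lay between 0 and 62.6 normalized counts and CDH1 between 0.93 and 32.3. EPCAM was at 0 in 4 libraries. limma and edgeR called 0 of the 3, and DESeq2 and the block called 1 higher (6.92% and 9.05% of all genes). KRT18 lay wholly above DMSO in CA4 (log2 fold change 0.46, limma adjusted p = 0.0849), as did 14.3% of all genes. Of 8 markers of blood, endothelial and neural cells 5 were tested and 0 called in limma, edgeR or DESeq2. At an unadjusted p under 0.05 there was 1 in limma, where 23% of all genes were. None of the 8 was at 0 in all libraries. PECAM1, VWF, CDH5 and CD68 were present throughout, with means over the 6 libraries of 447, 866, 315 and 716 normalized counts. The first 3 had 916, 1732 and 576 in CA4 replicate 3, above the other 5 libraries. Of the 5 tested, CA4 lay wholly above DMSO in 1 (PECAM1) and wholly below in 1 (CD68), against 14.3% and 13.4% of all genes. The part of these differences in the results was not tested. In a bulk sample fewer cells of a type and less RNA per cell cannot be told apart.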

How the data were processed

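RNA of 6 libraries was selected for polyA and sequenced by a service, per the labels' protocols. The deposited signal is a normalized count, which the authors obtained from the reads of a gene and a scaling factor of the library. The submitters' processing notes name GRCh38, Trim Galore 0.6.6, FastQC 0.12.1, STAR 2.7.9a, Salmon 1.8.0 and DESeq2 1.44.0, without roles. The annotation release and use of strand are not given in the sources used here. In each library 100% of values were whole multiples of the value of 1 read (tolerance 0.01), from which reads were recovered. Salmon estimates counts, so these may be estimates that were rounded.

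The 13928 genes whose mean over the libraries reached 10 were tested on log2(normalized count + 1) with limma 3.58.1 in R 4.3.3 (treatment as the only term, mean trend, two-sided p-values adjusted by Benjamini-Hochberg over all tested genes). Fold changes understate the change of low genes. edgeR 4.0.16 with TMM factors and its quasi-likelihood test, as well as DESeq2 1.42.0, were run on the recovered reads as alternatives, and limma (with and without the block), edgeR and DESeq2 were tested on simulated data. DESeq2 and the block made a larger share of false calls there than limma without the block or edgeR. Each simulated library was drawn on its own, with a spread estimated by edgeR and no effect of the replicate number. That simulation thus cannot judge the block where libraries of the same number are alike. Other alternatives were pseudocounts of 0.1 and 5, no filter, a mean of at least 50, 3 other scalings, other variance settings, a block for the replicate number, and the omission of each library in turn.

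The members and lists were chosen with earlier results of these data known. Named genes are all members, the tested alpha, beta, delta and epsilon tubulins, called genes and the 3 others with the smallest p of each pathway list, and the 5 genes most like TUBG1. PCNT, AKAP9, NEDD1 and the markers named singly fall outside this rule. Symbols came from the supplied gene table, positions and transcripts from GENCODE 29, promoters from RefSeq.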

Additional observations from a re-analysis of the deposited data

How the results depend on the processing

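TUBG1 was lower in CA4 in all 18 alternatives and past the threshold in 15. Its log2 fold change was -0.84 without the variance trend (limma adjusted p = 0.0561), and from -0.91 to -0.75 with 1 library left out. The sum of TUBG1 and TUBG2 was past the threshold in 17 of 18, with -0.79 to -0.67 when a library was left out. The number of ring complex members called lower was 1, became 2 with the same total (3.76% of all genes called lower), in DESeq2 (5.39%) and with the replicate block (8.16%), and 0 without the variance trend (0.373%). It was 0 to 1 with a library left out, and the number called higher was 0 throughout. For the 3 pathway lists, 2 genes were called lower, and this became 1 without the filter (1.05% of all genes called lower) and in edgeR (1.82%), 5 in DESeq2 and with the replicate block, 0 without the variance trend (shares as above), and 0 to 3 with a library left out. The 1 called higher became 2 with the replicate block and 0 with a pseudocount of 0.1, no filter, quantile normalization, the same total, the same 75th percentile, no variance trend and edgeR, and was 0 whenever a library was left out. The cause of these moves was not tested, although fewer libraries lower the power by construction.

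Signs turned in values that passed no threshold, most of them near 0. With the same total, TUBGCP3 was at -0.089, TUBGCP6 at -0.087, MZT2B at -0.034 and the MZT2 sum at -0.059. At the same 75th percentile TUBGCP3 was at -0.021 and TUBGCP6 at -0.019. Under quantile normalization TUBGCP6 was at -0.042, MZT2A at 0.014 and the MZT2 sum at -0.015. With a library left out TUBGCP3 ran from -0.083 to 0.083, TUBGCP5 from -0.25 to 0.026, TUBGCP6 from -0.039 to 0.054, MZT1 from -0.0054 to 0.29 and MZT2A from -0.050 to 0.059. The difference in change between TUBG1 and TUBA4A then ran from -0.16 to 0.17, that to TUBA8 from -1.95 to 0.69 and that to TUBD1 from -0.21 to 0.20. At a pseudocount of 0.1 the last 2 were 0.39 and 0.0013.

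The replicate block gave TUBG2 a limma adjusted p of 0.0327 against 0.0801. It also called TUBE1 higher, 10 instead of 9 alpha and beta tubulins lower and 4 instead of 0 genes of cycling cells lower. Deviations from the group means correlated at 0.202, 0.159 and 0.059 between same-numbered libraries. These did not all exceed 0.1 and the labels name no shared batch, so the libraries were not treated as paired. Each library correlated best with its own number except CA4 replicate 3, which correlated at 0.074 with DMSO replicate 2.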
